A study of Mus musculus with 2 samples.

Results

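This account concerns 9 microRNA (miRNA) genes that are known from endocrine, pancreatic, gonadal and liver tissue, as they were measured in the embryonic mouse kidney. The genes were chosen by name: Mir375, Mir7-1, Mir7-2, Mir7b, Mir216a, Mir216b, Mir217, Mir202 and Mir122. All 9 have a line in the deposited tables, which hold 1973 miRNA genes. MicroRNA sequencing was done on RNA of under 30 nt from kidneys of B6NCrl mouse embryos at 15.5 days of development. There was 1 group of 2 libraries, labelled biological replicates, and each is a pool of kidneys of both sexes, from 78 embryos in replicate 1 and 62 embryos in replicate 2. No treatment, mutant allele, other tissue or other age was part of the design, so the data give the level of each gene in the kidney and how far the pools differ. In replicate 1, 7434182 reads lay on a miRNA gene's own strand, and in replicate 2 the number was 5863293. Levels are given as CPM, the reads of a gene per 1000000 such reads.

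A miRNA is a short RNA cut from a hairpin in its primary transcript, and it represses messenger RNAs that pair with its seed, the bases near its 5′ end. miR-375 is known as a miRNA of pancreatic islets and the pituitary, and miR-7 as a miRNA of endocrine cells and certain neurons. miR-216a, miR-216b and miR-217 are known from the exocrine pancreas, miR-202 from the gonads, and miR-122 is the dominant miRNA of hepatocytes. The adrenal, gonads, pancreas and liver lie close to the kidney in the embryo. None of these organs was measured here, so the tissue of origin of the reads could not be checked. In bulk RNA, fewer cells of a type and less RNA per cell cannot be told apart.

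The sequences that bear on the counts are those of the mature miRNAs, because a read counts for a gene only where it matches no other locus. The RefSeq table for GRCm38.p6 gave mature sequences for 8 of the 9 genes, and the ones below are shown because they set apart, or fail to set apart, the genes of each family. Mir122 had none. For Mir375 the table held miR-375-5p but no miR-375-3p, so the seed shown for Mir375 is that of miR-375-5p alone. Sequences run 5′ to 3′ and capitals mark the seed, bases 2 to 8.
miR-7a-5p, from Mir7-1 and Mir7-2: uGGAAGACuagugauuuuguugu
miR-7b-5p, from Mir7b: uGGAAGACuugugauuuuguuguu
miR-7a-1-3p, from Mir7-1: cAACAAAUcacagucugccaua
miR-7a-2-3p, from Mir7-2: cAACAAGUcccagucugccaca
miR-7b-3p, from Mir7b: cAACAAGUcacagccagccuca
miR-375-5p, from Mir375: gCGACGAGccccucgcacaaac
miR-216a-5p, from Mir216a: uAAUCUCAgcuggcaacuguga
miR-216b-5p, from Mir216b: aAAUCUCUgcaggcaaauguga
miR-217-5p, from Mir217: uACUGCAUcaggaacugacugga
miR-202-3p, from Mir202: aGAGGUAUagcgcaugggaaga
miR-202-5p, from Mir202: uUCCUAUGcauauacuucuuu

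The mature miR-7a-5p is identical in Mir7-1 and Mir7-2. Their hairpins share a stretch of 24 nt that holds the whole 23 nt of it. A read inside that stretch matches both loci, and the authors' files set reads of several loci apart, so such reads are in neither count. The counts of Mir7-1 and Mir7-2 therefore cover reads that reach outside the shared stretch or come from elsewhere in the hairpin, and they do not give the level of miR-7a-5p. The 3′ arms can be told apart, since miR-7a-1-3p and miR-7a-2-3p differ at 3 of 22 positions, A7G, A10C and U21C, counted from 1 at the 5′ end with the base of miR-7a-1-3p first. miR-7b-5p carries the same seed as miR-7a-5p and differs from it over 23 positions by A10U alone (base of miR-7a-5p first). The longest stretch that the Mir7b hairpin shares with either of the other Mir7 hairpins is 14 nt.

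The remaining hairpins for which RefSeq gave a sequence shared little with any other. Against the other 1004 hairpins of the table, the longest shared stretch was 9 nt for Mir375, 12 nt for Mir216a and Mir216b, and 11 nt for Mir217 and Mir202. miR-216a-5p and miR-216b-5p have the same bases 2 to 7 and differ at position 8, within the seed. They differ at 4 of 22 positions in all: U1A, A8U, U11A and C17A (base of miR-216a-5p first). miR-202-3p shares bases 2 to 7 with the let-7 miRNAs, a family of developmental timing, but of the mature sequences in the table only mmu-let-7j has its full seed. The gene of that miRNA, Mir7j, stood at 95.4 and 90.6 CPM. Among the Mir7 genes, miR-7a-2-3p and miR-7b-3p also have the same seed.

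The genes lie at separate places in the genome, except for the Mir216 and Mir217 genes. Positions are from GENCODE M21 on mm10 (GRCm38). Mir375 (ENSMUSG00000065616) lies on chromosome 1 from 74900658 to 74900721 on the minus strand, in no other annotated gene, with Cfap65 1350 nt and the crystallin gene Cryba2 7515 nt away. Mir7-1 (ENSMUSG00000065434) is on the minus strand of chromosome 13 from 58392779 to 58392886, in an intron of Hnrnpk, which encodes an RNA-binding protein made in most cells. Mir7-2 (ENSMUSG00000065609) is intergenic on the plus strand of chromosome 7, from 78888277 to 78888373. Mir7b (ENSMUSG00000065491) is on the plus strand of chromosome 17 from 56242988 to 56243098, outside any other gene and 183 nt from the long noncoding RNA AC026385.1.

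Mir216b, Mir216a and Mir217 lie in that order on the plus strand of chromosome 11 within 17645 nt. Mir216b (ENSMUSG00000076318) spans 28746191 to 28746276 and overlaps Mir216c on the other strand. Mir216a (ENSMUSG00000065539, 28757012 to 28757083) and Mir217 (ENSMUSG00000065415, 28763728 to 28763835) are in introns of the long noncoding RNA Gm12082. Mir202 (ENSMUSG00000065502) is on the minus strand of chromosome 7 from 139957689 to 139957760, overlaps an exon of the noncoding gene Gm2044 on its own strand, and lies 67 nt from the hairpin annotated as mmu-mir-7686. Mir122 (ENSMUSG00000065402) is on the plus strand of chromosome 18 from 65248861 to 65248926 and overlaps an exon of the noncoding gene AC157910.3. Reads on the opposite strand played almost no part: Mir216b had 1 in replicate 1, and the other 8 genes had 0 in both libraries.

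The 9 genes spanned the range from well expressed to undetected. Mir375 and Mir122 led in both libraries, and Mir7-1 and Mir7b came next. The Mir216 and Mir217 genes and Mir202 stood at or near the detection limit. Mir7-2 stood above these in replicate 2, but in replicate 1 it was at 2.29 CPM, below Mir217 at 2.82 CPM. Of the 9 genes, 6 reached 1 CPM in both libraries, where 20.0% of all 1973 genes did so. At least 10 CPM in both was reached by 4 of the 9, against 13.9% of all genes. The 9 genes were chosen for known roles in other organs, with earlier results from these libraries known, so these shares describe them only. Together they held 12388 reads, or 0.167% of counts, in replicate 1 and 15284 reads, or 0.261%, in replicate 2. The mean was 0.214% ± 0.0665 (SD, n = 2). Reads inside the stretch that Mir7-1 and Mir7-2 share are not in these sums, which can therefore be too low.

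**Figure D1:**
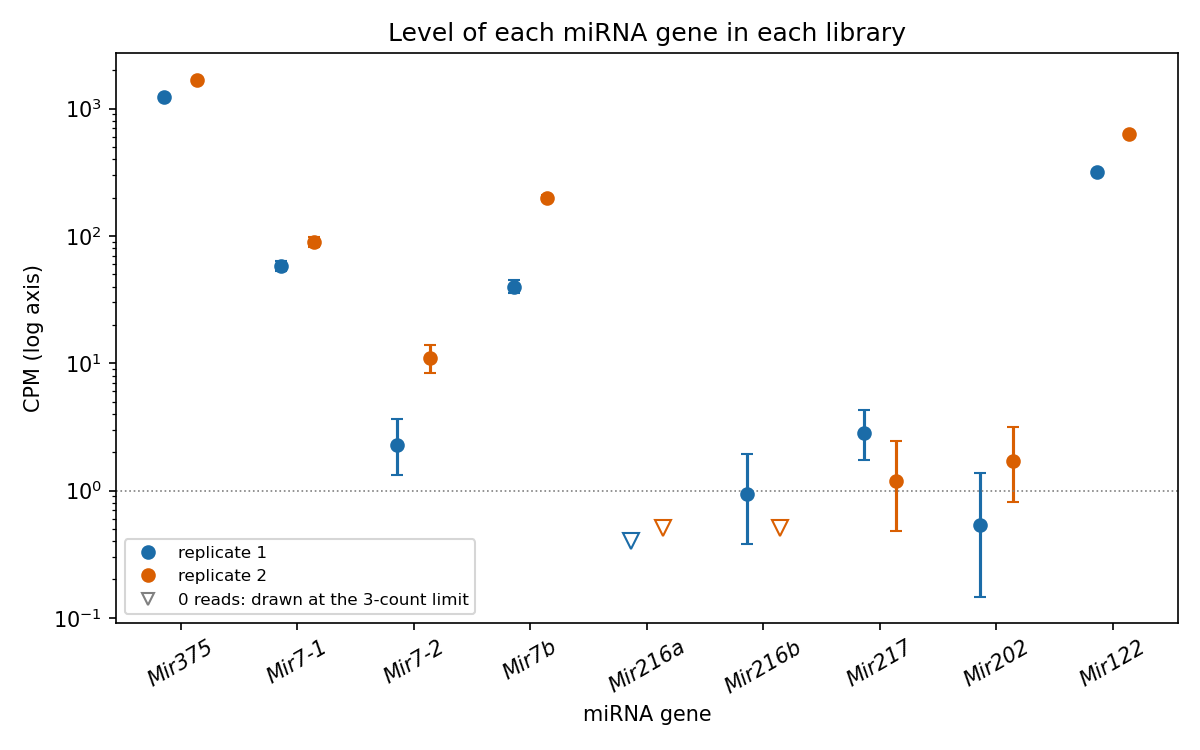
Level of each of the 9 genes as CPM on a log axis, with a point for each library, bars for the 95% exact binomial interval (counting error only) and a dotted line at 1 CPM. Mir375 is the highest in both libraries, and open triangles mark genes with 0 reads at the limit that 3 counts set.

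Mir375 was the most abundant of the endocrine genes. It had 9239 reads in replicate 1, which is 1243 CPM (95% exact Clopper-Pearson interval 1218 to 1268), and 9835 reads in replicate 2, which is 1677 CPM (1644 to 1711). The mean of 1460.1 ± 307 CPM (SD, n = 2) put it at rank 71 of the 1973 genes, at rank 79 in replicate 1 and rank 67 in replicate 2. It alone made up 74.6% (73.8 to 75.3) of the reads of the 9 genes in replicate 1 and 64.3% (63.6 to 65.1) in replicate 2. The reads of the 9 genes leave out those inside the stretch that Mir7-1 and Mir7-2 share, so these shares can be too high. Such intervals cover counting error only, since reads copied by PCR are not independent molecules.

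Mir375 was low beside the leading gene of the epithelial miR-200 family, but within the range of that family. By mean CPM it also lay below Mir200c (4015) and Mir200b (3934), and above Mir200a (725) and Mir141 (518). For each read of Mir429, a miR-200 family gene of epithelial cells, there were 0.0828 reads of Mir375 in replicate 1 and 0.132 in replicate 2. The genes nearest to Mir375 in pattern, by the distance between their log2(CPM + 1) values over the 2 libraries, were Mir1983 at a distance of 0.156 and Mir467e at 0.228. Mir1983 stood at 1248 and 1506 CPM, and Mir467e, of the repeated families in Sfmbt2, at 1374 and 1484 CPM.

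Mir122, the hepatocyte gene, was the next most abundant of the 9. It had 2371 reads in replicate 1, at 319 CPM (306 to 332), and 3685 reads in replicate 2, at 628 CPM (608 to 649). Its mean was 474 ± 219 CPM (SD, n = 2), with ranks of 123 and 96 in the libraries. Mir375 exceeded it by 3.90 times (3.72 to 4.08) in replicate 1 and by 2.67 times (2.57 to 2.77) in replicate 2, so the order held in both libraries while the ratio moved beyond counting error. The nearest genes in pattern were Mir433 at a distance of 0.439, with 346 and 469 CPM, and Mir676 at 0.487, with 439 and 561 CPM.

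The Mir7 genes, of endocrine cells and neurons, ranged from 2.29 to 198 CPM. Mir7-1 had 432 reads, or 58.1 CPM (52.8 to 63.9), in replicate 1 and 523 reads, or 89.2 CPM (81.7 to 97.2), in replicate 2. Mir7b had 297 reads, or 39.95 CPM (35.5 to 44.8), in replicate 1 and 1160 reads, or 198 CPM (187 to 210), in replicate 2. Mir7-1 was thus above Mir7b in replicate 1 and below it in replicate 2. The counts of Mir7-1 and Mir7-2 leave out reads inside the stretch they share, so they are unlike that of Mir7b. The order of Mir7-1 and Mir7b is therefore not settled by these counts. Mir7-2 was lowest, with 17 reads at 2.29 CPM (1.33 to 3.66) in replicate 1 and 64 reads at 10.9 CPM (8.41 to 13.9) in replicate 2. Its intervals do not overlap those of either of the others in either library.

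The Mir7 reads were made up differently in the pools. Mir7-1 gave 57.9% (54.3 to 61.5) of the Mir7 reads in replicate 1 and 29.9% (27.8 to 32.1) in replicate 2. Mir7b gave 39.8% (36.3 to 43.4) in replicate 1 and 66.4% (64.1 to 68.6) in replicate 2. Mir7b over Mir7-2 stood at 17.5 (10.7 to 30.4) and 18.1 (14.1 to 23.7), with intervals that overlap. The sum of the Mir7 genes was 746 reads, or 100.3 CPM, in replicate 1 and 1747 reads, or 298 CPM, in replicate 2. These sums leave out reads inside the stretch that Mir7-1 and Mir7-2 share.

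**Figure D2:**
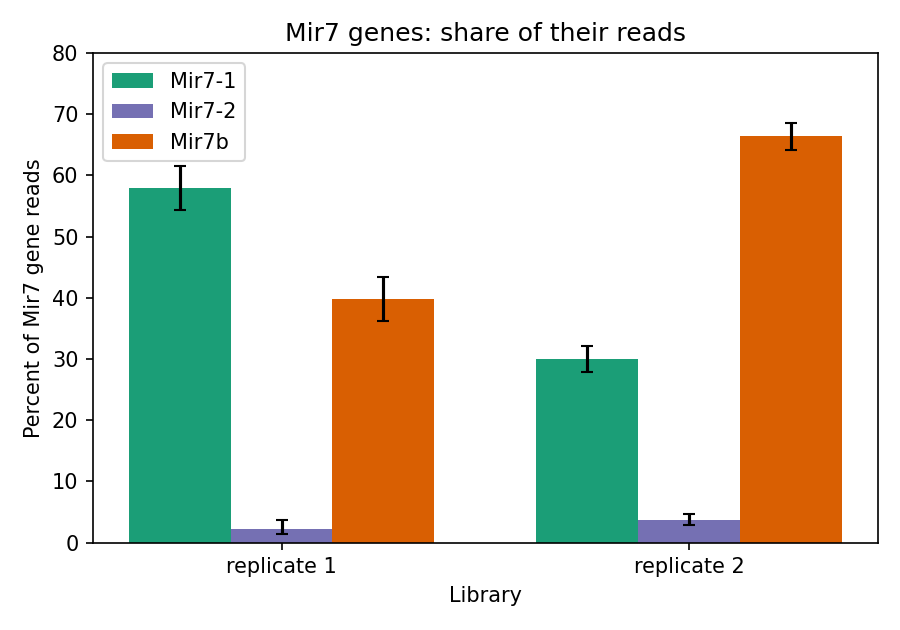
Share of the reads of the Mir7 genes held by Mir7-1, Mir7-2 and Mir7b in each library, in percent, with bars for the value and lines for its 95% exact binomial interval. Mir7-1 holds 57.9% in replicate 1 and 29.9% in replicate 2, and Mir7b 39.8% and 66.4%.

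The genes of the exocrine pancreas stood near the detection limit. Mir217 had 21 reads in replicate 1, at 2.82 CPM (1.75 to 4.32), and 7 reads in replicate 2, at 1.19 CPM (0.480 to 2.46). Mir216b had 7 reads, at 0.942 CPM (0.379 to 1.94), in replicate 1 and 0 reads in replicate 2. Mir216a had 0 reads in both. A count of 0 allows up to 3 reads, which is 0.404 CPM in replicate 1 and 0.512 CPM in replicate 2, so a level up to there is not excluded at this depth. The upper bound of the two-sided exact interval for 0 reads is wider, at 0.496 and 0.629 CPM. The 3 genes of the cluster together held 3.77 CPM in the first library and 1.19 CPM in replicate 2. For each read of Mir217 there were 440 reads of Mir375 (288 to 711) in replicate 1 and 1405 (682 to 3496) in replicate 2.

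Mir202, the gonadal gene, had 4 reads in replicate 1, at 0.538 CPM (0.147 to 1.38), and 10 reads in replicate 2, at 1.71 CPM (0.818 to 3.14). The intervals of the libraries overlap. A further list of gonadal genes, 19 measured genes of the X chromosome cluster that is active in the male germ line, summed to 11.3 and 8.70 CPM. Of the 19, 9 had no read in either library and 2 reached 1 CPM in both, namely Mir741 at 5.38 and 4.60 CPM and Mir547 at 2.29 and 2.05 CPM. The Mir465 genes of that list share mature sequences, so their counts can be too low. Both gonadal sets were thus far below Mir375 and Mir122.

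The order of the means was Mir375, Mir122, Mir7b, Mir7-1, Mir7-2, Mir217, Mir202, Mir216b and Mir216a. The places of Mir7-1 and Mir7-2 rest on counts without the reads inside their shared stretch. Dividing by hairpin length, which runs from 64 to 111 nt, left all 9 in the same place. In replicate 1 the interval of Mir7-2 overlaps those of Mir217, Mir216b and Mir202. The interval of Mir216b overlaps those of Mir217, Mir202 and Mir216a as well, and those of Mir202 and Mir216a overlap too. Mir216b stood above Mir202 there. In replicate 2 the interval of Mir217 overlaps those of Mir202, Mir216b and Mir216a. Mir202 stood above Mir217 there, and Mir216b and Mir216a were both at 0. In replicate 1 Mir217 also stood above Mir7-2, and Mir7-1 above Mir7b.

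Between the pools, the endocrine and liver genes stood higher in replicate 2. The comparison used a two-sided exact binomial test of each gene's counts given the library totals, run over the 378 genes with a mean of at least 10 reads, with Benjamini-Hochberg adjustment. It compares these libraries, not conditions, and covers counting error only. A gene was called at an adjusted p under 0.05 and a fold of at least 2. By that rule 5.82% of the tested genes were called higher in replicate 2 and 0.265% lower. That split rests on the scaling: 22 genes were called higher and 1 lower by library sum, 15 and 7 with TMM, and 14 and 8 with DESeq2 size factors. Of the 9 genes, 6 had enough reads for the test, and 2 of the 6, Mir7b and Mir7-2, were called, both higher in replicate 2. An adjusted p under 0.05 alone was reached by 5 of the 6, all higher in replicate 2. Of all tested genes 55.8% reached it, 40.2% as higher in replicate 2, so the adjusted p by itself sets these genes little apart.

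Mir7b had a log2 ratio of replicate 2 over replicate 1 of 2.31 (95% exact interval 2.12 to 2.497; adjusted p = 2.06e-168), a 4.95-fold difference. Only 2 of the 378 tested genes had a higher ratio. Mir7-2 followed at 2.26 (1.47 to 3.12; adjusted p = 8.87e-10), or 4.77-fold, with the sixth highest ratio. Mir7-1, which carries the same miR-7a-5p as Mir7-2, differed less, at 0.62 (0.43 to 0.81; adjusted p = 1.36e-10), and its interval does not meet that of either other Mir7 gene. Of the genes nearest to Mir7b in pattern, Gm23935, at a distance of 0.449, stood at 32.6 and 156 CPM, and Mir505, at 0.983, at 54.9 and 107 CPM.

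Mir122 fell just short of the fold threshold, at a log2 ratio of 0.98 (0.90 to 1.05; adjusted p = 1.05e-149) or 1.97-fold, and ranked 25 of 378. Its interval holds the threshold of 2-fold. With a threshold of 1.5-fold, Mir122 and Mir7-1 were called as well. At that threshold 60 of the 378 tested genes were called, 54 of them higher in replicate 2. Mir375 differed by 0.43 (0.39 to 0.47; adjusted p = 4.43e-94), or 1.35-fold, with 98 tested genes at a higher ratio. Mir217 was lower in replicate 2, at -1.24 (-2.72 to 0.05; adjusted p = 0.0902). It passed the 2-fold threshold but missed that of the adjusted p, so it was not called. With DESeq2 size factors in place of the library sums it stood at -1.40 and was called, at an adjusted p of 0.0392. Mir202, Mir216b and Mir216a had too few reads for the test.

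**Figure D3:**
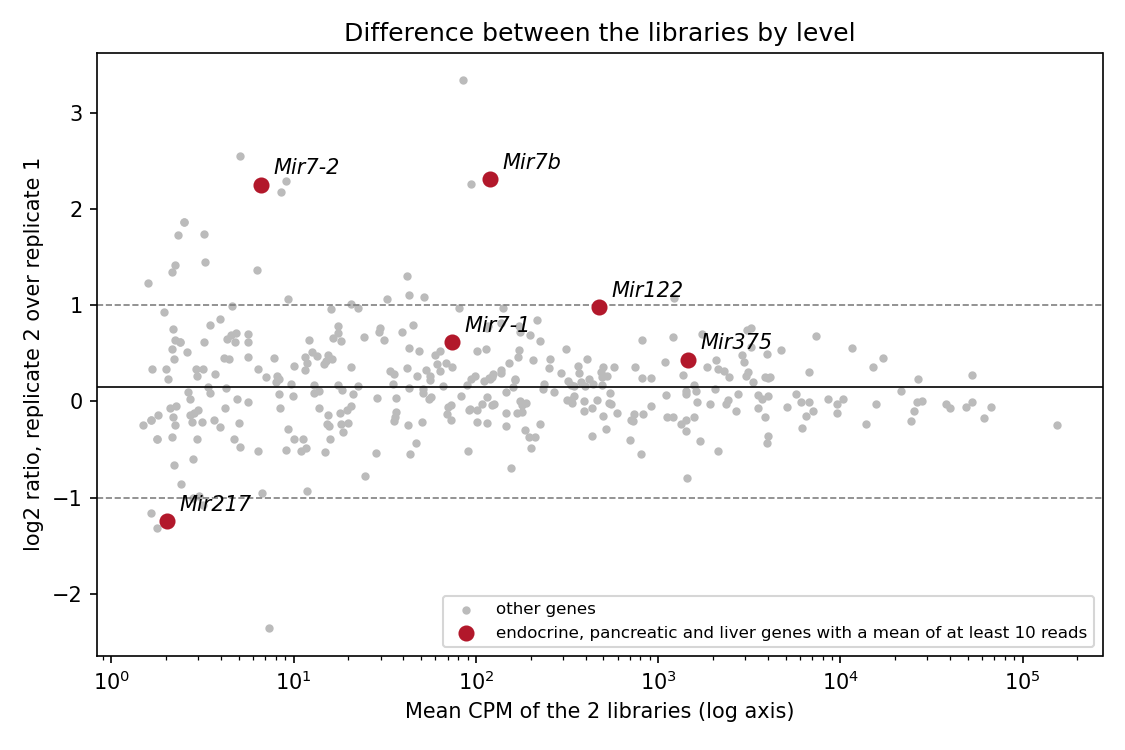
Log2 ratio of replicate 2 over replicate 1 against mean CPM (log axis) for the 378 tested genes, with the named genes in red. The dashed lines mark 2-fold and the solid line the median of the tested genes at 0.15. Mir7b and Mir7-2 lie above the upper dashed line, Mir122 at it, and Mir217 below the lower dashed line.

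The median log2 ratio of the 6 genes was 0.80, beside 0.15 over all 378 tested genes. The 5th and 95th percentiles of all tested genes were -0.52 and 1.08. Mir7b and Mir7-2 thus lay above that range, Mir375, Mir7-1 and Mir122 inside it, and Mir217 below it. Scaling by TMM or by DESeq2 size factors moved every log2 ratio by -0.13 or -0.16. The directions of all 6 genes held under both.

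**Figure D4:**
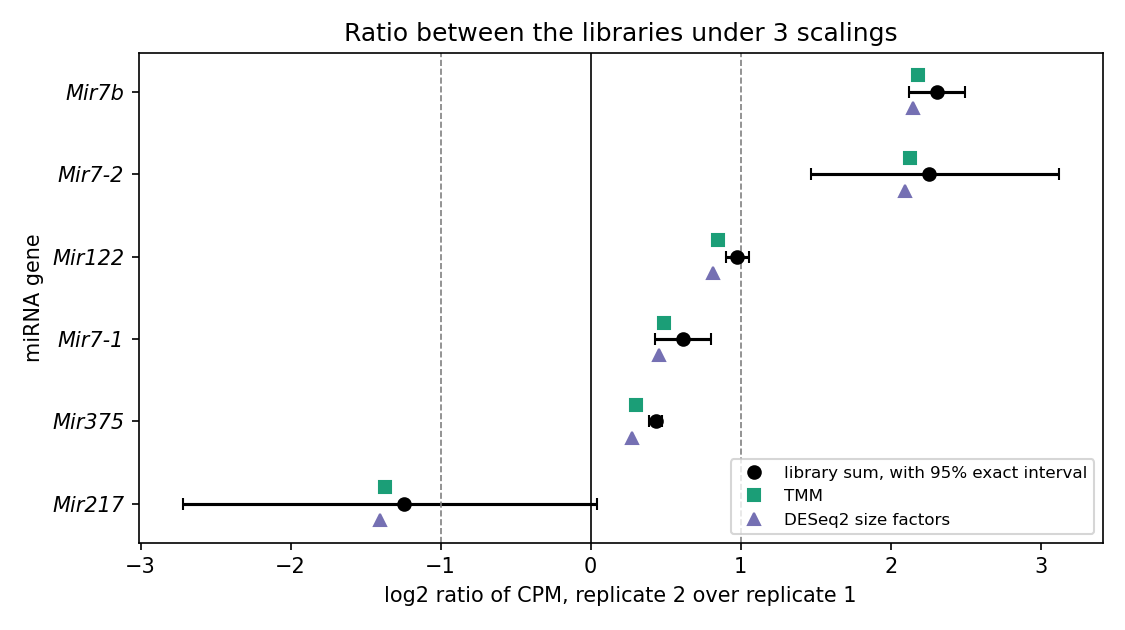
Log2 ratio of replicate 2 over replicate 1 for the 6 tested genes, as scaled by the library sum (circle, with 95% exact interval), TMM (square) and DESeq2 size factors (triangle), with dashed lines at 2-fold. The 5 genes other than Mir217 stay above 0 under the 3 scalings.

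Markers of other cell types were compared at the level of whole lists. Families known from epithelial cells were abundant. The miR-200 family summed to 2.48% and 2.13% of counts, and the miR-30 family, known from nephron tubules and podocytes, to 2.75% and 3.86%. Mir429 and Mir200c led the former at 13878 and 4015 CPM, and Mir30e and Mir30a the latter at 17235 and 11649 CPM (means, n = 2). Mir375 and the Mir7 genes summed to 0.134% and 0.198%. Of their 4 genes, 2 were called higher in replicate 2 and none lower, where 5.82% of all tested genes were called higher and 0.265% lower.

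Part of the neural list was higher in replicate 2, as Mir7b was. Of its 17 measured genes 13 had enough reads, and 3 of the 13 were called higher in replicate 2 and 0 lower, where 5.82% of all tested genes were called higher. Its summed level was 720 CPM in replicate 1 and 949 CPM in replicate 2, and its median log2 ratio was 0.25. The 3 were Mir138-1 (24.2 and 59.9 CPM), Mir138-2 (33.4 and 70.9 CPM) and Mir129-2 (1.48 and 8.70 CPM), named for being called, after their values were seen. Of the 13, 9 were higher and 4 lower in replicate 2, where 235 of all 378 tested genes were higher. The 4, also named after their values were seen, had log2 ratios of -1.32 for Mir9-3, -0.39 for Mir128-2, -0.20 for Mir212 and -0.07 for Mir129-1, the last of which shares its mature sequence with Mir129-2. The leading neural genes, Mir132 and Mir137, stood at 374 and 419 CPM and at 126 and 218 CPM. The neuronal Mir124a-1, Mir124a-2, Mir124a-3 and Mir9-2 were at 0 in both libraries. These, and the Mir138 and Mir129 genes, have copies with a shared mature sequence, so their counts can be too low and a count of 0 does not show absence. The part of neural cells in the Mir7b difference was not tested.

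Markers of blood, which the fetal liver makes at this age, were set beside Mir122. The 3 erythroid genes summed to 352 and 488 CPM. In replicate 2, 3 of 3 were higher, where 235 of all 378 tested genes were, and none was called. Mir451a stood at 254 and 371 CPM and Mir144 at 84.7 and 95.2 CPM. Their median log2 ratio was 0.54, below the 0.98 of Mir122. Reads of Mir122 per read of Mir451a numbered 1.25 (1.18 to 1.33) in replicate 1 and 1.69 (1.61 to 1.79) in replicate 2. The leukocyte list summed to 619 and 700.1 CPM, led by Mir223 at 393 CPM in each library and Mir155 at 216 and 294 CPM. The part of blood in the level of Mir122 was not tested.

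Of 4 genes shared by liver, gut and kidney, Mir192 alone reached an adjusted p under 0.05, as lower in replicate 2. The list of Mir192, Mir194-1, Mir194-2 and Mir215 summed to 282 and 199 CPM, with a median log2 ratio of -0.07. None of the 4 genes was called, and 2 of the 4 were higher in replicate 2, where 235 of all 378 tested genes were. The lower sum came mostly from Mir192, at 192 and 119 CPM, with a log2 ratio of -0.69 (-0.83 to -0.56). Mir194-2, which shares its mature sequence with Mir194-1, stood at 78.3 and 68.6 CPM, with a log2 ratio of -0.19 (-0.38 to -0.005). Mir215 stood at 9.68 and 10.1 CPM and Mir194-1 at 1.88 and 2.22 CPM. Their log2 ratios were 0.06 (-0.47 to 0.57) and 0.24 (-0.97 to 1.43), with intervals that hold 0. Reads of Mir122 per read of Mir192 numbered 1.66 (1.56 to 1.78) in replicate 1 and 5.30 (4.89 to 5.76) in replicate 2. The epithelial pair Mir203 and Mir205, known from stratified epithelium, summed to 2553 and 2021 CPM, with Mir203 at 1934 and 1450 CPM and Mir205 at 620 and 571 CPM. The 8 measured genes of striated muscle together held 1026 and 700.1 CPM, led by Mir206 at 959 and 659 CPM and Mir208b at 30.9 and 18.1 CPM, with 1 of 5 tested genes called lower, against 0.265% of all tested genes. It was Mir133b, at 12.2 and 2.39 CPM, named after its value was seen. The muscle genes Mir1a-1, Mir133a-1 and Mir133a-2 had no read in either library. Genes with copies can have counts that are too low, so this does not show absence, and the muscle sum can be too low. Lists of other tissues thus lay on both sides, and the sums were given no test.

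**Figure D5:**
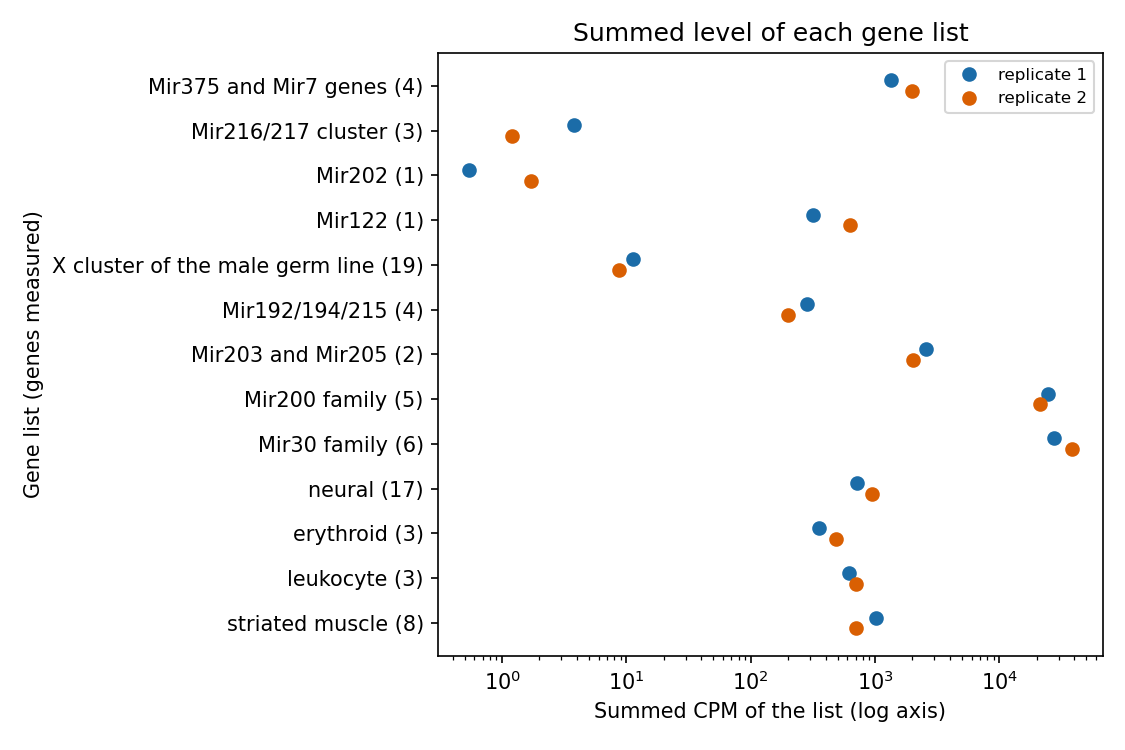
Summed CPM of each gene list on a log axis, with a point for each library and the number of measured genes in brackets. Mir122 and the list of Mir375 and the Mir7 genes lie higher in replicate 2, and the cluster of Mir217, the list led by Mir192 and the muscle list lie lower.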

How the data were processed

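MicroRNA sequencing counts of 2 embryonic mouse kidney libraries were analysed. Per the deposited notes, the authors made raw read counts per miRNA gene from alignments to mm10 with the GENCODE M4 annotation. The sources used here do not name the aligner or the counting program. The deposited counts come in 3 columns, which hold both strands, the strand of the gene and the other strand. Own-strand counts were used, and the opposite strand held 2.16% and 2.33% of gene reads. Unmapped reads (17.7% in replicate 1 and 19.7% in replicate 2), reads of several loci (27.1% in replicate 1 and 26.6% in replicate 2) and reads outside genes are listed separately and were kept out of the library totals of 7434182 and 5863293. Genes with copies can therefore have counts that are too low.

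Names and positions came from GENCODE M21, matched by identifier without version for 1894 of 1973 genes (Mir375 has a later record version there than in the files), and sequences from RefSeq (GRCm38.p6). The 9 genes and the other lists were chosen with earlier results of these data known. Named genes are the 9, the 2 nearest in pattern to Mir375, Mir7b and Mir122, the 2 highest of each other list, those sharing a mature sequence or seed with a member, and overlapping or neighbouring genes. Intervals are 95% exact (Clopper-Pearson). The mean and SD are over 2 libraries, which the labels call biological replicates and which carry 1 donor label. The test was checked on simulated Poisson counts (counting error only) with the real libraries' means and totals, in the direction of replicate 2 over 1. With 200 genes changed it called 92.9% of those changed 2.5-fold, 98% of those changed 4-fold and 1 of 181 unchanged genes, over 379 genes. With no gene changed it called 0 of 385. Counting error alone is what the test assumes, so few calls among unchanged genes were built into this check. It does not cover differences between pools. Alternatives were other scalings (TMM from edgeR 4.0.16, size factors from DESeq2 1.42.0, in R 4.3.3), strands, count filters, folds, pseudocounts and single libraries. Other steps used Python 3.11.15, scipy 1.17.1, pandas 2.3.3, numpy 2.4.6 and matplotlib 3.10.9.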

Additional observations from a re-analysis of the deposited data

How the results depend on the processing

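The call of Mir7b held under all 8 alternatives of the test, with log2 ratios from 2.15 to 2.31. Mir7-2 was called under the 7 that kept it, and with a mean count of at least 100 it was not tested, which left 1 of 4 genes called. With a fold of at least 1.5, 4 of the 6 genes were called. Mir217 was called with DESeq2 size factors alone. Over all genes, 23 calls among 378 tested genes became 35 among 729 with no count filter. They became 9 among 264 with a mean count of at least 100, and 60 among 378 with a fold of at least 1.5. Leaving out a replicate gave 6 to 7 genes at 1 CPM, in place of 6. The Mir375 share of the counted reads of the 9 genes was then 64.3% to 74.6%. Those counts lack reads inside the stretch that Mir7-1 and Mir7-2 share. Dividing by hairpin length, chosen after seeing the data, changed no place in the order. The ratios could not be computed without a replicate. No paired analysis was possible because there is 1 group. A mean over 2 libraries has little precision, and genes of under 10 reads cannot be compared between them.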
